A study of Mus musculus with 24 samples.

Results

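The right striatum/thalamus was compared by miRNA-Seq between pups with hypoxic-ischemic brain injury (HIBI) and sham pups. The comparison used 8 of the 24 libraries of the study, 4 from HIBI pups (pups 1, 4, 5, and 7) and 4 from sham pups (pups 2, 3, 6, and 8). All were CD1 pups of both sexes at postnatal day 9. In the HIBI group the right common carotid artery was cauterized, and after 2 h of recovery the pups were kept at 8% oxygen for 30 min. Tissue was collected 30 min later. The sham group had surgery with no cautery of the artery and no hypoxia. No hypoxia-only group was used, so the effects of ligation and hypoxia cannot be told apart within the region. Striatum and thalamus were dissected together from one hemisphere, and each library came from bulk tissue, in which fewer cells of a type and less RNA per cell cannot be told apart.

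Of the 1531 mouse entries in the count table, 436 had a mean above 10 CPM (counts scaled to a common library total) over the 8 libraries and were kept. These held 99.88% of the mouse counts. The limit was passed through the HIBI mean alone by 21 of them and through the sham mean alone by 8, so those had to differ in that direction. Just inside this limit were miR-495-5p at 10.03 CPM and miR-148a-5p at 10.04 CPM, and just outside it were let-7a-1-3p at 9.72 CPM and miR-467d-3p at 9.51 CPM. Sham libraries held 1607306 to 2373239 counts and HIBI libraries 1272808 to 2368665. A level of 10 CPM therefore rested on between 12.73 and 23.73 counts. Levels are CPM after TMM normalization, and values after ± are standard deviations (SD) for levels and standard errors (SE) for log2 fold changes.

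MiRNAs are short RNAs that guide Argonaute proteins to messenger RNAs, mainly through pairing of the seed, bases 2 to 8 of the mature strand. A hairpin precursor gives a 5p and a 3p strand, and as a rule one of them is kept and the other is degraded. The striatum and thalamus are supplied in part by branches of the internal carotid circulation, and deep grey matter is a common site of injury in term infants with hypoxic-ischemic encephalopathy.

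The tissue was first examined for its markers. MiR-124-3p and miR-9-5p, both abundant in neurons, were among the 10 miRNAs with the highest mean CPM. The miR-10 family lies in the Hox clusters and is expressed in hindbrain. Its sham means were below those of the cerebellum and above those of the cortex. In the sham libraries, with all 24 libraries scaled together, miR-10b-5p was at 95.2 ± 36.5 CPM (SD, n = 4) in the striatum/thalamus, 492 ± 108 in the cerebellum, and 51.7 ± 27.6 in the cortex. MiR-10a-5p was at 89.6 ± 26.0, 570 ± 440, and 16.4 ± 11.7 CPM (SD, n = 4) in the same order. MiR-196a-5p and miR-196b-5p, of the same clusters, had 2 and 10 counts in all over the 8 libraries.

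The libraries did not separate by group. The first principal component held 37.9% of the variance and placed HIBI pup 5 (8.33) with sham pups 3 (5.24) and 6 (11.2), opposite HIBI pups 1 (-6.32) and 4 (-10.1) and sham pups 2 (-3.63) and 8 (-4.46). HIBI pup 7 was at -0.282. The same split was seen with base composition. Across the 372 miRNAs with a mature sequence, Spearman's rho between the deviation of a library from the mean and the GC content of the miRNA was -0.696 in HIBI pup 5, -0.458 in sham pup 3, and -0.578 in sham pup 6. It was 0.46, 0.523, and 0.215 in HIBI pups 1, 4, and 7, and 0.19 and 0.42 in sham pups 2 and 8. Thus 3 of the HIBI libraries and 2 of the sham libraries had relatively more of the GC-rich miRNAs. Each of these values describes 1 library, whose miRNAs share a depth and a preparation.

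After HIBI, levels of miR-128-1-5p, miR-668-5p, miR-214-3p, and miR-34b-3p were higher in every library than in any sham library, and those of the neuronal miR-124-3p were lower in every library. By edgeR's quasi-likelihood test 12 of the 436 miRNAs (2.75%) passed both criteria of the study, a change of more than 1.5-fold and p under 0.05 before adjustment, and these are called counted. Of these, 11 were upregulated after HIBI (2.52%) and 1 was downregulated (0.229%). Without the fold change criterion 14 passed (3.21%). That share is below the 0.05 that would pass on average if no miRNA differed. No miRNA had an adjusted p-value under 0.05 (0%), the smallest edgeR adjusted p being 0.980, and none did with DESeq2 either. The groups were apart, with every library of 1 above every library of the other, for 10 miRNAs (2.29%), 6 with HIBI above and 4 with HIBI below. Of the 70 arrangements of 4 against 4 pups, a share of 0.0286 sets any given miRNA apart, and 2.29% is not above that share. The number counted was 7 without sham pup 3, 19 without sham pup 8, and 38 without HIBI pup 5 (8 of them among the 12), where 16 were higher and 22 lower, so that most were then downregulated. Of the 12, miR-128-1-5p, miR-1264-3p, and miR-664-5p passed the 10 CPM limit through the HIBI group alone. They were counted as well among 740 miRNAs with a mean above 1 CPM, a limit that both groups passed, with log2 fold changes of 1.68, 1.21, and 1.30. The log2 fold change was above 0 for 202 and below 0 for 234, its median was -0.03, and it lay within 0.5 of 0 for 370 miRNAs (84.9%). The median half-width of the 95% confidence interval was 0.69, so that many differences of the size of the fold change criterion could not be resolved with 4 pups a group.

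Among the 12, 4 upregulated miRNAs kept an unadjusted p-value under 0.05 with each pup left out in turn, with the same 436 miRNAs in each fit, and under the 12 other settings tried. They were miR-128-1-5p, miR-668-5p, miR-214-3p, and miR-34b-3p. The highest of the unadjusted p-values with a pup left out were 0.0185, 0.0214, 0.0427, and 0.0463 in that order. These 4 also had the smallest p-values of the 436 in the main fit, and the refits reused the same libraries. Keeping p under 0.05 is therefore a description and no independent support. MiR-128-1-5p is the passenger strand of a hairpin whose other strand, miR-128-3p, is abundant in neurons. Its CPM was 26.0, 36.8, 19.96, and 13.8 in HIBI pups 1, 4, 5, and 7 and 12.8, 3.05, 7.44, and 7.15 in sham pups 2, 3, 6, and 8. Every HIBI library was above every sham library, although HIBI pup 7 and sham pup 2 lay close together, and the sham mean was under the 10 CPM limit. The log2 fold change was 1.67 ± 0.493 (SE), with an exact permutation p = 0.0286, the smallest that 70 arrangements of 4 against 4 pups allow. Every miRNA whose groups are apart has this permutation p, so here and below it only restates that the groups are apart. The abundant strand of the hairpin, miR-128-3p, was at 25477 ± 7603 CPM in HIBI and 32477 ± 9464 CPM in sham libraries (SD, n = 4), with a log2 fold change of -0.35 ± 0.264 (SE) and overlapping libraries. That value was -0.12 without sham pup 6, -0.14 without sham pup 3, and -0.22 without HIBI pup 7. MiR-128-3p is made from a further hairpin as well, whose own 5p strand, miR-128-2-5p, had a log2 fold change of -0.09 ± 0.359 (SE), which ran from -0.36 without HIBI pup 1 to 0.16 without HIBI pup 5 and was -0.35 after a trend on GC content was removed from each library (GC correction).

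MiR-668-5p is a minor strand from the imprinted Dlk1-Dio3 region. It was at 23.2, 38.0, 22.9, and 23.8 CPM in the HIBI libraries in the order of pups 1, 4, 5, and 7, against 17.0, 11.3, 11.4, and 10.2 in sham pups 2, 3, 6, and 8. The groups did not overlap, and HIBI pup 4 stood above the other HIBI libraries. Its log2 fold change was 1.11 ± 0.349 (SE) (exact permutation p = 0.0286). The other strand, miR-668-3p, overlapped between groups and had a log2 fold change of 0.25 ± 0.230 (SE), which was 0.05 after the GC correction.

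MiR-214-3p is processed from Dnm3os, a non-coding transcript of mesenchymal cells. In HIBI pups 1, 4, 5, and 7 it was at 12.6, 38.7, 18.01, and 39.7 CPM, and in sham pups 2, 3, 6, and 8 at 10.3, 10.9, 11.4, and 11.7. The sham libraries were close to each other, HIBI pups 4 and 7 were well above them, and HIBI pup 1 was just above the highest. This gave a log2 fold change of 1.30 ± 0.425 (SE) (exact permutation p = 0.0286). The same transcript carries a hairpin of miR-199a, which has a further hairpin elsewhere. MiR-199a-3p and miR-199a-5p had log2 fold changes of 0.37 ± 0.439 (SE) and 0.76 ± 0.598 (SE). MiR-199b lies opposite an intron of Dnm1 on chromosome 2. Its 3p strand, at 0.34 ± 0.475 (SE), has the same sequence as miR-199a-3p, so their reads cannot be told apart. None of these 3 miRNAs had an unadjusted p-value under 0.05. MiR-199a-3p was at 125.6 CPM in HIBI pup 5, 41.4 to 76.5 in the other HIBI libraries, and 22.5 to 84.8 in the sham libraries. MiR-199b-3p was at 107.6 CPM in HIBI pup 5, 23.9 to 72.7 in the other HIBI libraries, and 28.1 to 67.4 in the sham libraries. Of the 6 listed strands of miR-214, miR-199a, and miR-199b, 4 were tested and 1 was upregulated, beside 2.52% of all miRNAs tested. The 4 were above 0 under each of the 4 scalings, with a median of 0.56, beside -0.03 over all 436. That median was 0.27 without HIBI pup 5, 0.86 without HIBI pup 1, and 0.89 without sham pup 6.

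MiR-34b-3p comes from a cluster that is expressed in multiciliated cells and is a target of p53. Its levels were 382, 464, 450.3, and 413 CPM in HIBI pups 1, 4, 5, and 7 and 171, 186, 280.2, and 379.8 in sham pups 2, 3, 6, and 8. Sham pup 8 was just below the lowest HIBI library, and the other sham libraries were lower. The log2 fold change was 0.75 ± 0.262 (SE) (exact permutation p = 0.0286), and it ranged from 0.60 without sham pup 2 to 1.12 without sham pup 8. MiR-34c-3p, which has the same seed, had a log2 fold change of 0.69 ± 0.368 (SE) and overlapping libraries. The 5p strand of miR-34b had 6 counts over the 8 libraries.

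The mature sequences of these miRNAs, with the seed in capitals, are shown with 3 tested miRNAs that share their seeds. MiR-128-1-5p has the seed of miR-128-2-5p, miR-34b-3p that of miR-34c-3p, and miR-668-5p that of miR-467h, which had a log2 fold change of 0.08 ± 0.773 (SE). No other tested miRNA with a sequence shared the seed of miR-214-3p.
miR-128-1-5p: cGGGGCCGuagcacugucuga
miR-128-2-5p: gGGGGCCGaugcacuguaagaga
miR-668-5p: gUAAGUGUgccucgggugagcaug
miR-467h: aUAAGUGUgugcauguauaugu
miR-214-3p: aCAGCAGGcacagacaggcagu
miR-34b-3p: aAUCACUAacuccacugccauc
miR-34c-3p: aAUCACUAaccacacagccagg
Sequences are from RefSeq on GRCm38.p6, in which 372 of the 436 miRNAs had 1 mature sequence. The hairpin of miR-128-1 lies on chromosome 1 from 128202361 to 128202430, in an intron of R3hdm1. That of miR-668 is on chromosome 12 from 109734732 to 109734797, in an exon of Mirg. The hairpin of miR-214 is on chromosome 1 from 162223368 to 162223477, in an exon of Dnm3os and, on the opposite strand, an intron of Dnm3. That of miR-34b is on chromosome 9 from 51103562 to 51103645, opposite an intron of Btg4.

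**Figure D1:**
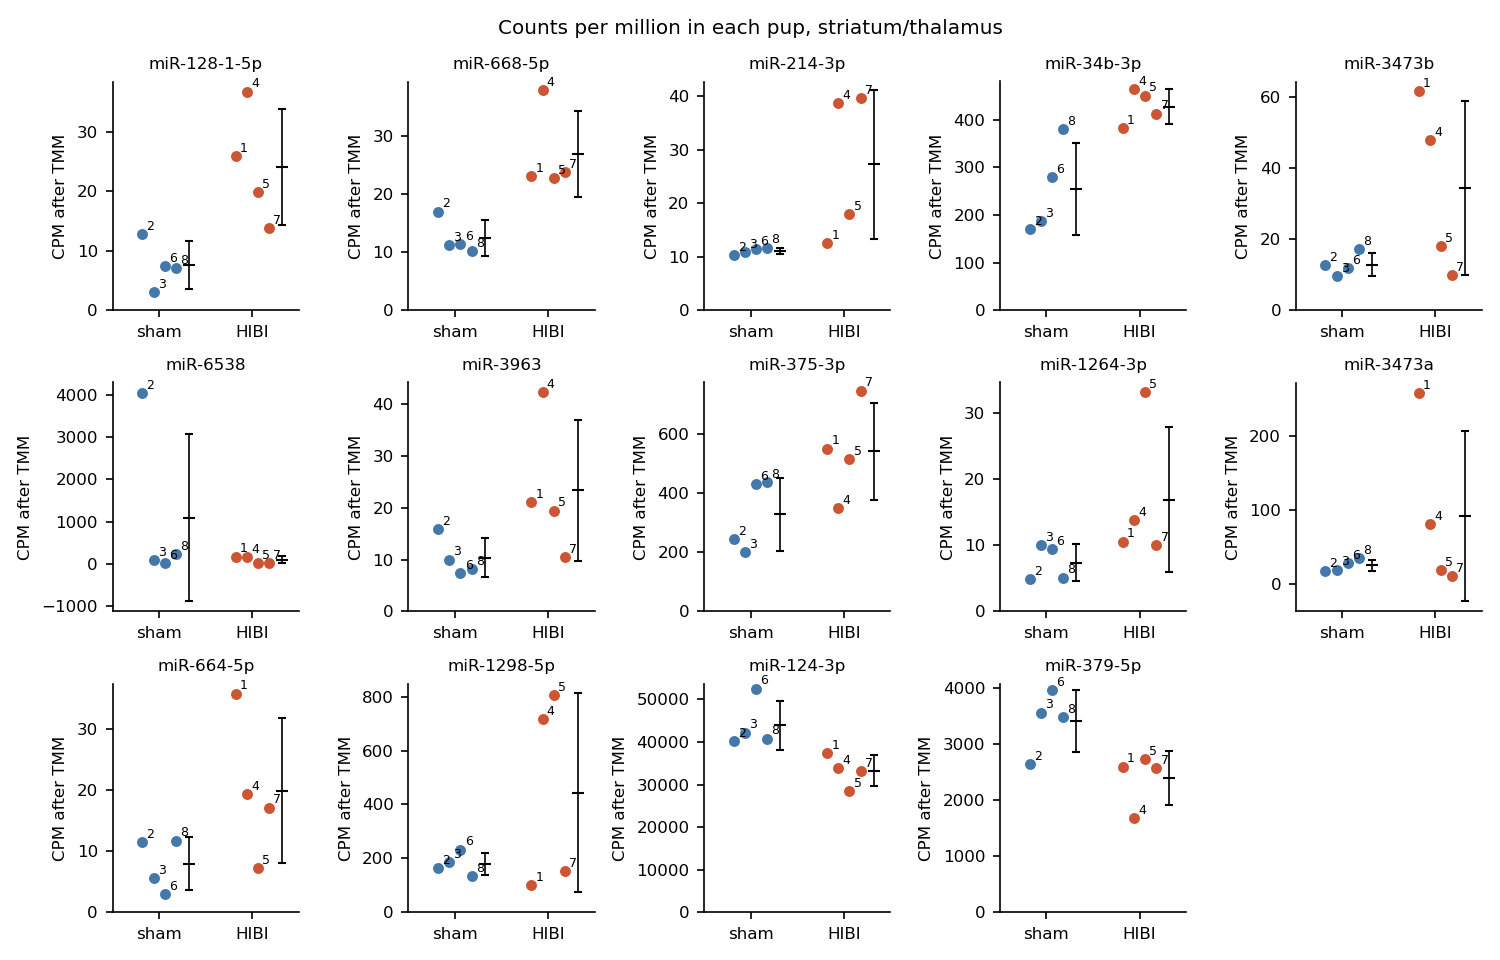
CPM after TMM normalization (vertical axes, linear) in each striatum/thalamus library of the sham (blue) and HIBI (orange) groups for the 12 counted miRNAs, miR-124-3p, and miR-379-5p. Digits name the pups, and the bars are the mean and SD of 4 pups. The groups are apart for miR-128-1-5p, miR-668-5p, miR-214-3p, miR-34b-3p, miR-1264-3p, and miR-124-3p, and sham pup 2 is far above the other libraries for miR-6538.

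A pair of the counted miRNAs lies in introns of Htr2c, the gene of a serotonin receptor that is strongly expressed in choroid plexus. MiR-1298-5p was at 101.1, 715, 805, and 152 CPM in HIBI pups 1, 4, 5, and 7 and 164, 186, 233, and 136 in sham pups 2, 3, 6, and 8. HIBI pups 4 and 5 were high, and HIBI pups 1 and 7 were within or below the sham range. Its log2 fold change was 1.30 ± 0.574 (SE), with an exact permutation p = 0.400. In limma-voom over all 24 libraries it was 0.86 with the pup as a block and 0.87 without a block, a fit added after the data were seen, and was not counted in either, nor with DESeq2. EdgeR over the 24 libraries without a block gave 1.39, with an unadjusted p-value under 0.05. It lost its unadjusted p-value under 0.05 without HIBI pup 4 (1.02), HIBI pup 5 (0.84), or sham pup 2 (1.26), 3 (1.42), or 8 (1.30). Its other strand, miR-1298-3p, had a log2 fold change of -0.16 ± 0.277 (SE).

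MiR-1264-3p had 10.5, 13.7, 33.1, and 10.03 CPM in HIBI pups 1, 4, 5, and 7 and 4.87, 10.02, 9.42, and 5.11 in sham pups 2, 3, 6, and 8. HIBI pup 5 was highest, and HIBI pup 7 was barely above sham pup 3, so the groups were apart by a narrow margin, and miR-1264-3p passed the 10 CPM limit through the HIBI group alone. The log2 fold change of 1.18 ± 0.511 (SE) (exact permutation p = 0.0286) was 0.62 without HIBI pup 5, 1.04 without sham pup 2, and 1.14 without sham pup 8, each with an unadjusted p-value of 0.05 or more. In limma-voom over 24 libraries it was 1.10 with the block and 1.12 without it, and was not counted in either. Its other strand, miR-1264-5p, was at 44.8 CPM in HIBI pup 5, between 8.42 and 9.62 in the other HIBI libraries, and at 8.52, 19.2, 24.3, and 0.511 in sham pups 2, 3, 6, and 8. The groups overlapped, with a log2 fold change of 0.46 ± 0.825 (SE). The whole list of Htr2c miRNAs had 6 tested members of 9 listed, 2 of them upregulated (miR-1298-5p and miR-1264-3p) and none downregulated, beside 2.52% and 0.229% of all miRNAs tested. Its median log2 fold change was 0.47, beside -0.03 over all 436, and with 1 pup left out it ran from -0.09 without HIBI pup 5 to 0.84 without sham pup 6. The sum over the list was 315, 1025, 1304, and 417 CPM in HIBI pups 1, 4, 5, and 7, against 462 ± 98.3 (SD, n = 4) in the sham group.

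The markers of choroid plexus and ciliated epithelium were examined beside them. Of 10 listed, 7 were tested, of which miR-34b-3p was upregulated and none was downregulated, beside 2.52% and 0.229% of all miRNAs tested. The median log2 fold change was 0.64, beside -0.03 over all 436 miRNAs, and 6 of 7 members were above 0 under each of the 4 scalings. Without HIBI pup 5 that median was 0.34. The summed level was 1939, 3129, 4746, and 2427 CPM in HIBI pups 1, 4, 5, and 7 and 2003, 2746, 2527, and 2151 in sham pups 2, 3, 6, and 8. HIBI pups 4 and 5 had the highest sums, and the other HIBI libraries lay within or below the sham range. MiR-204-5p, the most abundant member with 81.7% of the counts of the list, had a log2 fold change of 0.31 ± 0.304 (SE). It was at 1386, 2465, 4010, and 1883 CPM in HIBI pups 1, 4, 5, and 7, and between 1610 and 2479 in the sham libraries. Only HIBI pup 5 was above the sham range. Values for miR-34c-5p and miR-449a-5p were 0.59 ± 0.376 (SE) and 0.72 ± 0.579 (SE). MiR-211-5p was at -0.68 ± 0.571 (SE), and miR-211-3p had no counts. The part of choroid plexus tissue in the levels of miR-34b-3p, miR-1298-5p, and miR-1264-3p was not tested.

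MiR-375-3p, a miRNA of endocrine cells, was at 551, 351, 516, and 748 CPM in HIBI pups 1, 4, 5, and 7 and 244, 202, 431, and 439 in sham pups 2, 3, 6, and 8. HIBI pup 4 was below sham pups 6 and 8. Between groups the log2 fold change was 0.72 ± 0.310 (SE) (exact permutation p = 0.114). An unadjusted p-value under 0.05 was lost without HIBI pup 1 (0.71), 5 (0.74), or 7 (0.52), or sham pup 2 (0.60) or 3 (0.63).

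MiR-3473a and miR-3473b share sequence with many genes. The first 18 bases of miR-3473b were found in 401 other genes and those of miR-3473a in 146, so reads of other origin cannot be told apart from theirs by sequence. MiR-3473a was at 258, 81.1, 18.5, and 10.9 CPM in HIBI pups 1, 4, 5, and 7 and 17.6, 19.6, 28.3, and 34.7 in sham pups 2, 3, 6, and 8. HIBI pups 1 and 4 were above the sham range and HIBI pup 7 was below it. The log2 fold change of 1.87 ± 0.809 (SE) (exact permutation p = 0.486) was 0.54 without HIBI pup 1, and the unadjusted p-value was also 0.05 or more without HIBI pup 4 (1.96) or sham pup 2 (1.73), 3 (1.83), or 6 (2.00). In limma-voom over 24 libraries miR-3473a was at 0.83 both with the pup as a block and without, not counted, while edgeR over the same 24 libraries without a block gave 1.95, with an unadjusted p-value under 0.05. MiR-3473b had 61.8, 48.0, 18.01, and 10.03 CPM in the same HIBI pups and 12.8, 9.58, 11.9, and 17.4 in the sham pups, again with pups 1 and 4 high. HIBI minus sham was 1.40 ± 0.541 (SE) on the log2 scale (exact permutation p = 0.171), 0.96 without HIBI pup 1, 1.24 without HIBI pup 4, and 1.37 without sham pup 3, each of these with an unadjusted p-value of 0.05 or more. Limma-voom over 24 libraries gave 1.03 with the block and 1.02 without it, not counted in either.

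The remaining upregulated miRNAs were miR-3963 and miR-664-5p. MiR-3963 was at 21.1, 42.4, 19.5, and 10.5 CPM in HIBI pups 1, 4, 5, and 7 and 15.8, 10.02, 7.44, and 8.17 in sham pups 2, 3, 6, and 8. Only sham pup 2 was above the lowest HIBI library. HIBI minus sham was 1.17 ± 0.479 (SE) on the log2 scale (exact permutation p = 0.0571), and it was 0.76 without HIBI pup 4, 1.25 without sham pup 3, 1.14 without sham pup 6, and 1.19 without sham pup 8, where the unadjusted p-value was 0.05 or more. MiR-664-5p lies in an intron of Rab3gap2 and had 35.8, 19.3, 7.30, and 17.1 CPM in the HIBI pups and 11.6, 5.66, 2.98, and 11.7 in the sham pups, with HIBI pup 5 inside the sham range and a sham mean under the 10 CPM limit. Its log2 fold change was 1.31 ± 0.573 (SE) (exact permutation p = 0.114), and that of its more abundant other strand, miR-664-3p, was 0.10 ± 0.225 (SE). Without HIBI pup 1 (0.87), 4 (1.37), or 7 (1.37), or sham pup 3 (1.25) or 6 (1.12), miR-664-5p had an unadjusted p-value of 0.05 or more.

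A set of late miRBase entries (numbered 1900 or higher) held 53 tested miRNAs of 782 listed, of which 3 were upregulated and 1 was downregulated, beside 2.52% and 0.229% of all miRNAs tested. Their median log2 fold change was 0.15, and it ran from -0.10 without HIBI pup 1 to 0.34 without sham pup 8. Some of these entries share letters. The run AUCCCA, chosen after the values were seen and searched on the mature strand, was in 4 of the 372 mature sequences (1.08%), and they are shown to compare its place in each.
miR-3963: uGUAUCCCacuucugacac
miR-3968: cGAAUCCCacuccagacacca
miR-5100: uCGAAUCCcagcggugccucu
miR-191-5p: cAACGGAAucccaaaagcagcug
Capitals mark the seed. HIBI minus sham on the log2 scale was 1.17 ± 0.479 (SE) for miR-3963, 0.61 ± 0.296 (SE) for miR-3968, 1.60 ± 0.762 (SE) for miR-5100, and 0.05 ± 0.145 (SE) for miR-191-5p, an abundant miRNA of older annotation. MiR-5100 was at 21.1, 58.0, 14.6, and 1.67 CPM in HIBI pups 1, 4, 5, and 7, and between 5.62 and 10.4 in the sham libraries. MiR-3968 was at 5658, 8799, 3898, and 3707 CPM in the same HIBI pups, and between 2580 and 4365 in the sham libraries. For both, HIBI pup 4 was highest and the groups overlapped.

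MiR-6538 was the single downregulated miRNA. It was at 178, 173, 29.7, and 31.4 CPM in HIBI pups 1, 4, 5, and 7 and 4042, 84.9, 18.8, and 231 in sham pups 2, 3, 6, and 8. Sham pup 2 alone was high, and the other sham libraries spanned the HIBI range. Its log2 fold change of -3.42 ± 1.37 (SE) (exact permutation p = 0.571) was -0.12 without that pup, and the miRNA was no longer counted. It was also no longer counted without HIBI pup 5 (-3.11) or 7 (-3.11), with a robust quasi-likelihood fit or DESeq2, or in limma-voom over 24 libraries with the pup as a block (-1.37) or without (-1.38). In edgeR over the 24 libraries without a block it was -3.33. Its mature sequence has a GC content of 94.7%, and the log2 fold change was -1.98 after the GC correction.

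Below the fold change criterion, miR-124-3p and miR-379-5p had lower levels after HIBI with an unadjusted p-value under 0.05. MiR-124-3p, the major neuronal miRNA, was at 37442, 33887, 28508, and 33226 CPM in HIBI pups 1, 4, 5, and 7 and 40225, 42183, 52501, and 40778 in sham pups 2, 3, 6, and 8. All HIBI libraries were below all sham libraries. The log2 fold change was -0.40 ± 0.162 (SE) (exact permutation p = 0.0286), and it was -0.21 without sham pup 6, -0.33 without sham pup 3, -0.33 without sham pup 8, -0.34 without HIBI pup 4, -0.33 without HIBI pup 5, and -0.40 without HIBI pup 7, each with an unadjusted p-value of 0.05 or more. That p-value was under 0.05 in 1 of its 11 other settings, and the value in limma-voom over 24 libraries was -0.32 with or without the pup as a block. MiR-379-5p, of the Mirg cluster, was at 2599.8, 1681, 2733, and 2572 CPM in the HIBI pups and 2643, 3563, 3967, and 3479 in the sham pups, with sham pup 2 inside the HIBI range. Its log2 fold change was -0.51 ± 0.210 (SE) (exact permutation p = 0.0571). Without HIBI pup 4 (-0.31) or 7 (-0.55), or sham pup 3 (-0.41), 6 (-0.35), or 8 (-0.40), it had an unadjusted p-value of 0.05 or more, as it had in limma-voom over 24 libraries (-0.44 with or without the pup as a block) and with scaling by library size only.

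A further 4 miRNAs had groups that did not overlap but an unadjusted edgeR p-value of 0.05 or more. MiR-935 was higher in each HIBI library, with 91.97, 94.8, 63.3, and 61.9 CPM in HIBI pups 1, 4, 5, and 7 and 59.0, 54.9, 33.2, and 58.2 in sham pups 2, 3, 6, and 8, and its log2 fold change was 0.60 ± 0.280 (SE). In limma-voom over 24 libraries it was 0.67 with or without the pup as a block and passed both criteria, as it did without HIBI pup 5 (0.69), HIBI pup 7 (0.70), or sham pup 8 (0.78), and after the GC correction it was 0.40. MiR-935 also had an unadjusted p-value under 0.05 with DESeq2 size factors and with DESeq2. MiR-592-5p, from the Grm8 gene of a glutamate receptor, had 23.9, 3.74, 28.2, and 2.51 CPM in the HIBI pups and 28.6, 37.0, 37.2, and 29.1 in the sham pups, a log2 fold change of -1.18 ± 0.648 (SE). HIBI pups 4 and 7 were far below the rest, and HIBI pup 5 was just under sham pup 2. In the 2 limma-voom fits miR-592-5p was at -1.83 with and without the block and passed both criteria, as it did without HIBI pup 5 (-1.76). With no filter its unadjusted p-value was under 0.05 as well. MiR-127-3p and miR-136-3p, from the transcript antisense to Rtl1, were also lower in each HIBI library, with log2 fold changes of -0.28 ± 0.160 (SE) and -0.38 ± 0.273 (SE). MiR-127-3p was at -0.13 without sham pup 8 and -0.15 without HIBI pup 4. MiR-136-3p was at -0.21 without HIBI pup 7 and -0.17 after the GC correction. The remaining miRNAs among the 5 lowest log2 fold changes were miR-429-3p (-1.09 ± 0.853 (SE)), the erythrocyte miRNA miR-451a (-0.86 ± 0.527 (SE)), and the muscle miRNA miR-1a-3p (-0.72 ± 0.414 (SE)). Their groups overlapped. MiR-429-3p passed both criteria in limma-voom over 24 libraries (-2.17 with and without the block) and without HIBI pup 5 (-2.47), and was at -0.64 without HIBI pup 4 and -0.67 without sham pup 6. With no filter miR-429-3p also had an unadjusted p-value under 0.05. MiR-1a-3p was at -0.29 and miR-451a at 0.10 without sham pup 6. After the GC correction miR-451a was at -0.50, and in limma-voom over 24 libraries at -0.45 with the block and -0.44 without.

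Neuronal miRNAs had 9 of 10 listed members tested, with none up- or downregulated by both criteria and miR-124-3p lower by p-value alone, beside 2.75% and 3.21% of all miRNAs tested. The median log2 fold change was -0.29, and 1 of the 9 was above 0, or 2 with each of the other scalings. The median was 0.03 without sham pup 6, -0.14 without sham pup 3, -0.15 without HIBI pup 4, -0.18 without HIBI pup 1, and -0.18 without sham pup 8. Values were -0.34 ± 0.372 (SE) for miR-9-5p, -0.35 ± 0.264 (SE) for miR-128-3p, and -0.29 ± 0.176 (SE) for miR-129-5p. MiR-9-5p was at -0.80 without HIBI pup 5, with an unadjusted p-value under 0.05, and at 0.03 without sham pup 6, -0.13 without HIBI pup 4, -0.17 without HIBI pup 1, and -0.23 without sham pup 3. MiR-128-3p was at -0.12 without sham pup 6, -0.14 without sham pup 3, and -0.22 without HIBI pup 7. After the GC correction they were at -0.15 and -0.23. MiR-137-3p, at 0.86 ± 0.454 (SE), was the member above 0 in the TMM fit. The summed neuronal level was 105127 ± 23701 CPM in HIBI and 134947 ± 34521 CPM in sham libraries (SD, n = 4), and it was highest in sham pup 6.

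Oligodendrocyte miRNAs, which rise with myelination, had 4 tested members, none counted, beside 2.75% of all miRNAs tested. All had a log2 fold change below 0, under each of the 4 scalings, with a median of -0.57, and of -0.23 without sham pup 6. MiR-219a-2-3p was at 2018 ± 769.7 CPM in HIBI and 3090.1 ± 1029 CPM in sham libraries (SD, n = 4), a log2 fold change of -0.61 ± 0.328 (SE). For miR-338-5p and miR-338-3p it was -0.53 ± 0.322 (SE) and -0.62 ± 0.495 (SE). The summed level was 2164, 3100.0, 3380.3, and 1386 CPM in HIBI pups 1, 4, 5, and 7 and 3325, 4140.1, 5411, and 2301 in sham pups 2, 3, 6, and 8, so the groups overlapped.

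Markers of vessels and blood gave no counted miRNA, beside 2.75% of all miRNAs tested. MiR-126a-3p, the single tested member of 4 listed for endothelium, had a log2 fold change of -0.45 ± 0.336 (SE). With 1 pup left out that value was -0.01 without sham pup 6, -0.28 without HIBI pup 4, and -0.73 without HIBI pup 5. The mural cell miRNAs miR-143-3p and miR-145a-5p were at 0.06 ± 0.344 (SE) and 0.38 ± 0.267 (SE), and all 3 tested members of that list were above 0 under each of the 4 scalings. Their median of 0.09 ran from -0.04 without sham pup 2 to 0.35 without HIBI pup 4. Of the erythrocyte miRNAs, miR-486a-5p was at 0.23 ± 0.312 (SE), and the level of miR-451a was 369.9 CPM in sham pup 6 against at most 135 in any other library. The erythrocyte median was 0.04 over 4 tested members of 7, and ran from -0.19 without HIBI pup 4 to 0.28 without HIBI pup 5. Leukocyte and microglial miRNAs had 7 tested members of 13 and a median of -0.10 (from -0.30 without HIBI pup 5 to 0.07 without sham pup 6), with miR-150-5p at -0.05 ± 0.205 (SE) and miR-146a-5p at -0.51 ± 0.306 (SE). The level of miR-146a-5p was 961 CPM in sham pup 6, 410 to 679 in the other sham libraries, and 354 to 657 in the HIBI libraries. MiR-142a-3p and miR-142a-5p, which mark blood cells, had 3 counts each.

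Miscellaneous tissue markers were examined as well. The muscle list had 2 tested members of 6, a median of -0.70, and miR-206-3p at -0.68 ± 0.362 (SE). Without sham pup 3 or sham pup 6 that median was -0.46 or -0.39. The liver miRNA miR-122-5p was at 16.1 ± 8.53 CPM in HIBI and 24.5 ± 13.9 CPM in sham libraries (SD, n = 4), a log2 fold change of -0.60 ± 0.530 (SE), which was -0.24 without sham pup 3, -0.27 without sham pup 6, and -0.26 without HIBI pup 4. MiR-10a-5p and miR-10b-5p had log2 fold changes of -0.58 ± 0.284 (SE) and -0.34 ± 0.308 (SE), and were the 2 tested of 6 listed for the Hox clusters, with a median of -0.46, and of -0.31 without sham pup 3 and -0.16 without sham pup 6. None of these was counted, beside 2.75% of all miRNAs tested.

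MiR-210, which is induced by hypoxia through HIF1, was not among the miRNAs tested. Its 3p strand had 40 counts and its 5p strand 26 counts over the 8 libraries. The sum of both was 4.91, 1.25, 3.89, and 11.7 CPM in HIBI pups 1, 4, 5, and 7 and 6.09, 1.74, 2.98, and 0.511 in sham pups 2, 3, 6, and 8. A difference in miR-210 was not tested.

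Of the activity-regulated miRNAs, all 8 listed were tested and none was counted, beside 2.75% of all miRNAs tested. The median was -0.04, near that of all miRNAs, and 0.04 with scaling by library size only. It ran from -0.15 without HIBI pup 1 to 0.16 without HIBI pup 4. MiR-132-3p, induced by CREB, was at 0.26 ± 0.192 (SE), miR-212-5p at 0.02 ± 0.204 (SE), miR-134-5p at -0.09 ± 0.201 (SE), and miR-384-5p at -0.37 ± 0.346 (SE). For 4 of the 5 miRNAs the study chose for qPCR there was a sequencing value above the limit, none was counted, and the median was -0.10, which ran from -0.34 without HIBI pup 1 to 0.13 without sham pup 6. These were miR-335-5p (-0.37 ± 0.2998 (SE)), miR-128-2-5p, miR-155-5p (-0.10 ± 0.559 (SE)), and miR-6240 (0.73 ± 0.749 (SE)). MiR-335-5p was at -0.07 without sham pup 6, -0.17 without HIBI pup 4, and -0.03 after the GC correction. MiR-155-5p ran from -0.36 without sham pup 2 to 0.27 without sham pup 6, and was at 0.20 after the GC correction and 0.03 in limma-voom over 24 libraries with the block. MiR-6240 was at 237 CPM in HIBI pup 1, and without that pup its log2 fold change was -0.33, against 0.47 without sham pup 6 and 1.44 without sham pup 8. MiR-1969 had 49 counts in all and was not tested.

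The imprinted Dlk1-Dio3 region on chromosome 12 holds large clusters of miRNAs, which are expressed from the maternal chromosome. Its Rtl1 antisense and Rian list held 22 tested miRNAs of 31, none counted, beside 2.75% of all miRNAs tested, with a median log2 fold change of 0.02 (from -0.04 without HIBI pup 1 to 0.12 without sham pup 8). Its most abundant member, miR-434-3p, was at 47445 ± 3457 CPM in HIBI and 47087 ± 5138 CPM in sham libraries (SD, n = 4), and its log2 fold change was 0.01 ± 0.150 (SE). MiR-433-3p and miR-770-3p were at 0.09 ± 0.259 (SE) and 0.12 ± 0.260 (SE), and at 0.04 and -0.09 after the GC correction. The Mirg list held 50 tested miRNAs of 73, of which miR-668-5p alone was counted, beside 2.75% of all miRNAs tested. Its median was -0.11, with 14 members above 0, or 19 with scaling by library size only, and it was 0.06 without HIBI pup 4, 0.02 without sham pup 6, -0.02 without sham pup 3, and -0.03 without sham pup 8. MiR-487b-3p, miR-323-3p, and miR-541-5p, the most abundant, were at -0.18 ± 0.217 (SE), -0.06 ± 0.176 (SE), and -0.10 ± 0.206 (SE).

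The miR-181 family had 7 tested members of 10 and a median of -0.14 (from -0.21 without HIBI pup 5 to 0.01 without HIBI pup 4), with miR-181a-5p at -0.03 ± 0.141 (SE) and miR-181b-5p at -0.28 ± 0.222 (SE). The miR-17/92 and miR-106b/25 clusters, which promote proliferation, had 7 of 17 tested and a median of -0.04 (from -0.33 without HIBI pup 5 to 0.16 without sham pup 6, and 0.03 with scaling by library size only), with miR-93-5p at -0.18 ± 0.272 (SE) and miR-25-3p at -0.04 ± 0.303 (SE). All 9 let-7 guide strands were tested, and 1 was above 0 under each of the 4 scalings. Their median was -0.23, and it ran from -0.41 without HIBI pup 5 to 0.11 without sham pup 6. Before the GC correction let-7c-5p was at -0.10 ± 0.243 (SE), let-7a-5p at -0.14 ± 0.261 (SE), and let-7g-5p at -0.43 ± 0.301 (SE). After it let-7a-5p, let-7b-5p, let-7c-5p, let-7d-5p, and let-7f-5p were above 0, at 0.12, 0.21, 0.09, 0.10, and 0.06. Let-7e-5p, let-7g-5p, let-7i-5p, and miR-98-5p were then below 0, at -0.09, -0.20, -0.18, and -0.03. None of these lists held a counted miRNA, beside 2.75% of all miRNAs tested. Members of the let-7 list share the seed GAGGUAG, and the counting of reads between such close sequences is uncertain.

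The most abundant miRNA, miR-125b-5p, was at 168159, 268430.0, 137831, and 217119 CPM in HIBI pups 1, 4, 5, and 7 and 205732, 173826, 166077, and 226998 in sham pups 2, 3, 6, and 8. HIBI pups 4 and 5 were the highest and the lowest of all 8 libraries. Its log2 fold change was 0.03 ± 0.214 (SE), and that of miR-125a-5p, with the same seed, was 0.09 ± 0.244 (SE). MiR-26a-5p was at -0.11 ± 0.250 (SE), with HIBI pup 5 at 33427 CPM and the other HIBI libraries between 17708 and 18936. With 1 pup left out miR-26a-5p ran from -0.38 without HIBI pup 5 to 0.11 without sham pup 6, and after the GC correction it was at 0.03.

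Over all miRNAs the log2 fold change was related to base composition. Across the 372 miRNAs with a mature sequence, rho between log2 fold change and GC content was 0.392, a description of points that share the same 8 libraries. The median log2 fold change was -0.22 for 45 miRNAs under 40% GC and 0.16 for 84 miRNAs at 60% or above. When a trend on GC content was removed from each library, a correction chosen after the data were seen, 15 miRNAs were counted (12 higher and 3 lower), against 11 among the same miRNAs before it. The 15 held all 11. Corrected log2 fold changes were 1.44 for miR-128-1-5p, 0.96 for miR-668-5p, 1.14 for miR-214-3p, and 0.86 for miR-34b-3p. The smallest edgeR adjusted p after the correction was 0.886.

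**Figure D2:**
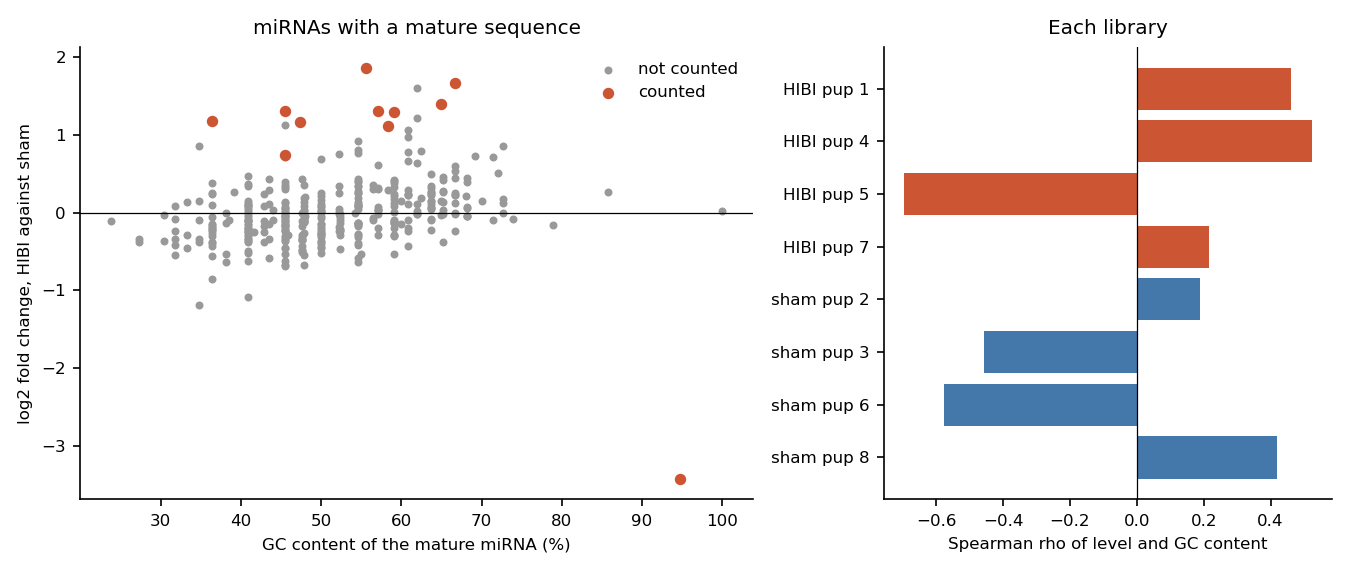
Left, log2 fold change of HIBI against sham (vertical axis) and GC content in percent (horizontal axis) for the 372 miRNAs with a sequence, the counted ones in orange. Right, Spearman's rho in each library between GC content and the deviation of the miRNA from its mean level. HIBI pup 5 has the lowest rho, -0.696, and HIBI pup 4 the highest, 0.523.

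Whether the effect of HIBI differed by region was tested in a joint model of all 24 libraries, since the cerebellum is outside the territory of the ligated artery. As the paper states, such a comparison cannot tell differences between regions apart from those between hypoxia alone and HIBI. For striatum/thalamus minus cerebellum, 52 of 436 miRNAs had an unadjusted p-value under 0.05 (11.9%), 35 above 0 and 17 below. For striatum/thalamus minus cortex there were 7 (1.61%), 6 above 0 and 1 below. Without sham pup 2, sham pup 3, or HIBI pup 4 the number was 32, 34, or 33 for the cerebellum. For the cortex it was 4 without sham pup 3 or sham pup 6, 13 without HIBI pup 4, and 11 without HIBI pup 5. No difference had an edgeR adjusted p under 0.05, the smallest being 0.262 with the cerebellum and 0.426 with the cortex. This model left out that each pup gave a library of every region. With the pup as a fixed block in edgeR, 75 of 436 had an unadjusted p-value under 0.05 for the cerebellum and 8 for the cortex. The smallest edgeR adjusted p was then 0.151 and 0.472. The counted miRNAs were picked on an effect that enters these differences, so their values are given as a description.

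MiR-128-1-5p differed from the cerebellum by 1.93 ± 0.540 (SE) on the log2 scale and from the cortex by 1.95 ± 0.521 (SE). For miR-668-5p the differences were 1.99 ± 0.762 (SE) and 1.36 ± 0.713 (SE), the latter with an unadjusted p-value of 0.05 or more. The differences for miR-214-3p were 1.78 ± 0.540 (SE) and 1.40 ± 0.544 (SE). For miR-34b-3p they were 1.60 ± 0.486 (SE) and 0.35 ± 0.485 (SE), again with an unadjusted p-value of 0.05 or more for the cortex. In the same model its own change was 0.83 in the striatum/thalamus and -0.77 in the cerebellum, so both enter the difference. Of the 12 counted miRNAs, 3 had the same direction in the cerebellum and 7 in the cortex. The 3 were above 0 in each region. In the order of striatum/thalamus, cerebellum, and cortex, miR-3963 was at 1.26, 1.42, and 2.50. Values for miR-3473a were 1.95, 1.11, and 1.58, and for miR-3473b 1.49, 0.79, and 0.81. Among all miRNAs, the smallest p-values for a difference from the cerebellum above 0 were for miR-423-5p (1.39 ± 0.382), miR-320-3p (0.93 ± 0.272), and miR-128-1-5p. HIBI minus sham for miR-423-5p was 0.45 in the striatum/thalamus and -0.93 in the cerebellum, and that of miR-320-3p was 0.37 and -0.56, with an unadjusted p-value under 0.05 in the cerebellum alone for each. The smallest p-values below 0 were for miR-31-5p (-1.19 ± 0.391), miR-379-5p (-1.03 ± 0.392), and miR-6538 (-4.14 ± 1.61). MiR-31-5p was at -0.55 in the striatum/thalamus and 0.65 in the cerebellum, and miR-379-5p at -0.44 and 0.59, again with p under 0.05 in the cerebellum alone. In the fit of 8 libraries miR-379-5p had an unadjusted p-value under 0.05 in the striatum/thalamus, which was lost in this joint fit, as it was for miR-124-3p (-0.32) and miR-375-3p (0.79). With the cortex, the smallest were for miR-128-1-5p, miR-483-5p (1.64 ± 0.601), and miR-214-3p above 0, and for miR-6538 (-4.18 ± 1.61), miR-702-3p (-1.24 ± 0.730), and miR-3963 (-1.24 ± 0.754) below. MiR-483-5p was at -0.64 in the cortex against 0.99 in the striatum/thalamus, and miR-702-3p at 1.39 against 0.15. Of the 3 below 0 with the cortex, miR-6538 alone had an unadjusted p-value under 0.05. With the pup as a fixed block in edgeR miR-3963 had one as well (-1.33), and miR-6538 was at -2.68 with the cortex and kept it. Its difference from the cerebellum was -1.26 in the block fit, with an unadjusted p-value of 0.05 or more. Its sham level in the striatum/thalamus was high in pup 2 alone.

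**Figure D3:**
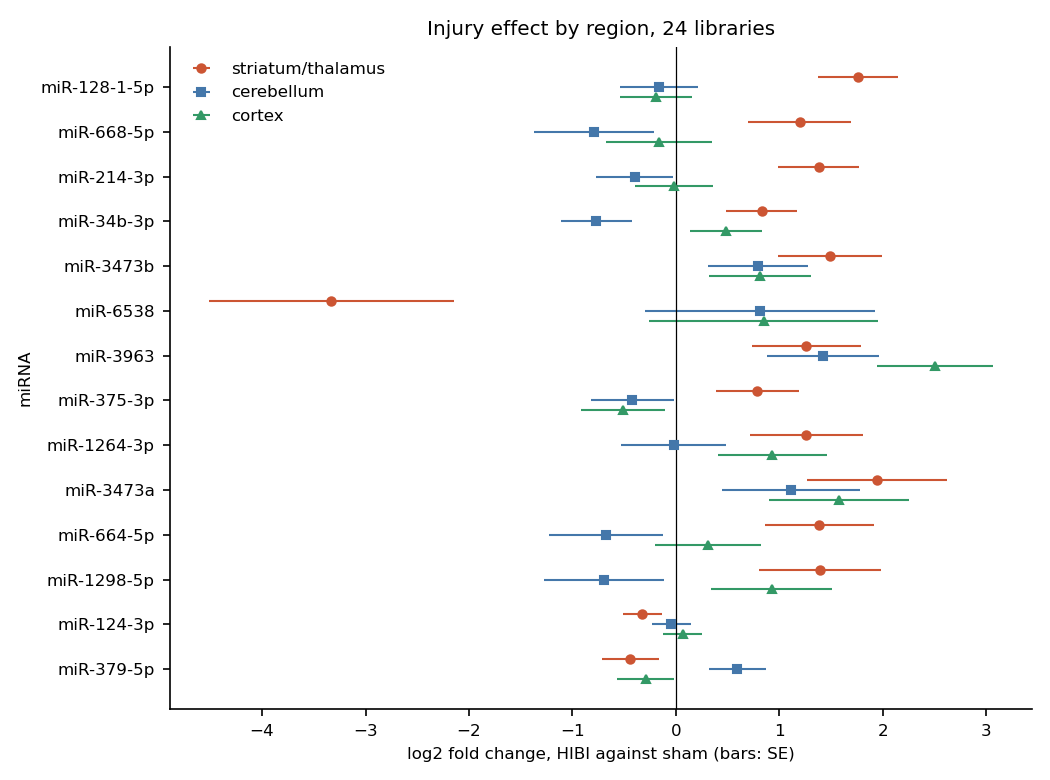
Log2 fold change of HIBI against sham (horizontal axis) with its standard error (bars) in the striatum/thalamus, cerebellum, and cortex for the 12 counted miRNAs, miR-124-3p, and miR-379-5p, from 1 fit of 24 libraries. MiR-3963, miR-3473a, and miR-3473b are above 0 in all 3 regions, and miR-128-1-5p is at 1.76 in the striatum/thalamus and near 0 in the others.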

How the data were processed

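MiRNA-Seq was measured in the right striatum/thalamus, cerebellum, and cortex. The authors aligned reads to mature mouse miRNAs of miRBase with Bowtie2 and deposited the counts per miRNA and library, without normalization. The deposited tables also hold the authors' own comparison by edgeR (log fold change, average log CPM, p-value, and false discovery rate), which was not used. The miRBase release and how reads matching more than 1 miRNA were assigned are not given in the sources used here. The 20 castor bean entries, with 0.000201% of the striatum/thalamus counts, were left out.

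The analysis used R 4.3.3, edgeR 4.0.16 (TMM, quasi-likelihood test), limma 3.58.1, and DESeq2 1.42.0, over miRNAs with a mean above 10 CPM. Benjamini-Hochberg adjustment covered all 436. Exact permutation tests were two-sided on log2(CPM + 1). Code was tested on simulated data. GC content is of the RefSeq mature sequence, and genes around hairpins are from GENCODE M21. Named were counted miRNAs, others with an unadjusted p-value under 0.05, those whose groups did not overlap, the 5 lowest fold changes, the 10 most abundant, opposite strands, list members, the qPCR miRNAs, and the 3 smallest p-values in each direction for the region differences. Members and lists were chosen with earlier results of these data known. Alternatives were other normalizations, tests, and filters, each pup left out, the pup as a block (limma-voom over 24 libraries, or a fixed block in edgeR for region differences), and limma-voom over 24 libraries without a block. Each pup gave a library of every region, which pairs them. Across miRNAs, a pup's deviations from the mean of its group correlated with a median of 0.14 between striatum/thalamus and cerebellum and 0.19 with the cortex. Pups were separate animals.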

Additional observations from a re-analysis of the deposited data

Results flagged for a closer look

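In 8 of the 68 groups of 4 libraries examined for 34 named miRNAs, 1 library was far from the other 3. Chance flags about 1 in 20 groups of unselected, normally distributed values. Many of these miRNAs were named for their values in the same libraries, so the 8 are not read against that rate. Sham pup 2 was at 4042 CPM for miR-6538, with the other sham libraries between 18.8 and 231. HIBI pup 4 was above its group for miR-668-5p (38.0 against 22.9 to 23.8) and below it for miR-379-5p (1681 against 2572 to 2733). HIBI pup 5 was above its group for miR-1264-3p (33.1 against 10.03 to 13.7) and miR-26a-5p (33427 against 17708 to 18936). HIBI pup 7 was at 29.3 for miR-136-3p, with the others between 49.8 and 53.0. Sham pup 6 was above its group for miR-124-3p (52501 against 40225 to 42183) and below it for miR-935 (33.2 against 54.9 to 59.0). The cause of these values was not tested.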

How the results depend on the processing

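Numbers of counted miRNAs in this section are out of 436 tested unless another number tested is given. The count of 12 miRNAs was 16 with DESeq2 size factors, 16 by library size only, 12 with upper quartile scaling, 14 with the likelihood ratio test, 16 with the exact test of edgeR, and 11 with a robust fit. It was 19 with DESeq2, 19 with a mean above 1 CPM (740 miRNAs tested), and 54 with no filter (1265 tested, 3 with an edgeR adjusted p under 0.05), and the higher share was 78.9% and 72.2% with the last 2 filters. Leaving out 1 pup gave 7 (sham pup 3) to 38 miRNAs (HIBI pup 5, 16 higher and 22 lower). In limma-voom over 24 libraries it was 18 with the pup as a replicate block and 19 without a block, a fit added after the data were seen. Of these 7 were among the 12 in either fit, and miR-3473b, miR-6538, miR-1264-3p, miR-3473a, and miR-1298-5p were not. All 5 had an unadjusted p-value under 0.05 with edgeR over the 24 libraries without a block. Region differences under 0.05 with a pup left out ran from 32 (sham pup 2) to 69 for the cerebellum and from 4 (sham pup 3) to 13 (HIBI pup 4) for the cortex. With the pup as a fixed block in edgeR they numbered 75 and 8 of 436, against 52 and 7 without it. Among the 34 named miRNAs examined above, direction changed in 31 fits, all of miRNAs without an unadjusted p-value under 0.05. In limma-voom it was 0.000472 for let-7c-5p and 0.0306 for miR-155-5p with the block, and 0.000361 and 0.0420 without it. After GC correction it was 0.0901 for let-7c-5p, 0.12 for let-7a-5p, 0.0312 for miR-26a-5p, and 0.20 for miR-155-5p. Other list members are not part of the 31. Some of them changed direction after GC correction, among them miR-770-3p (-0.09), miR-541-5p (0.03), miR-181a-5p (0.07), and miR-25-3p (0.02). With a pup left out the log2 fold change ran from -1.12 to 0.10 for miR-451a, -0.0782 to 0.24 for miR-125b-5p, -0.0665 to 0.30 for miR-125a-5p, -0.0412 to 0.10 for miR-434-3p, -0.26 to 0.14 for let-7c-5p, -0.80 to 0.0308 for miR-9-5p, -0.0509 to 0.35 for miR-433-3p, -0.33 to 0.11 for let-7a-5p, -0.38 to 0.11 for miR-26a-5p, -0.36 to 0.16 for miR-128-2-5p, -0.36 to 0.27 for miR-155-5p, and -0.33 to 1.44 for miR-6240. List medians ran from -0.0947 to 0.84 for the Htr2c introns, -0.21 to 0.0121 for the miR-181 family (-0.0646 by library size only), and -0.16 to 0.0565 for Mirg. The cause of these shifts was not tested. At 10 CPM few counts underlie a value, and 4 pups a group limit precision.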
